A study of Mus musculus with 4 samples.

Results

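The cytosolic ribosomal protein genes encode the proteins of the small (40S) and large (60S) subunits of the ribosome, which are assembled with ribosomal RNA in the nucleolus and then translate every mRNA in the cytoplasm. Their mRNAs are among the most abundant of a growing cell, and they carry a pyrimidine-rich start (the 5′ terminal oligopyrimidine, or TOP, motif) through which mTOR signaling controls their translation. Several ribosomal proteins also have a role in the p53 pathway. Free Rpl5 and Rpl11, bound to 5S ribosomal RNA, inhibit the p53 ubiquitin ligase Mdm2, and other ribosomal proteins have been reported to bind Mdm2 as well. Members were chosen by name: probes on the array whose gene name is Rpl or Rps with a number and at most 1 letter, or Rplp0, Rplp1, Rplp2 or Rpsa, with S6 kinase genes and Rps27l left out. This gave 79 of 31704 named genes, 30 of the small subunit and 49 of the large subunit, with 171 probes on 180 spots. The rule used no measured value.

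RNA was taken from mouse embryonic fibroblasts (MEFs), connective tissue cells that grow in culture, of wild-type (p53+/+, WT) and p53-/- genotype. Each genotype was left without agent or treated with doxorubicin, a drug that poisons topoisomerase II and breaks DNA. The 4 conditions were WT untreated, WT doxorubicin, p53-/- untreated and p53-/- doxorubicin, with 1 array each on 1 slide, so that condition, culture and place on the slide cannot be told apart, no spread between cultures is known and no p-value is given. The dose and the treatment time of the arrayed cells are not given in the sources used here, nor are the number of embryos behind each culture and how the p53 allele was disrupted. Values are Agilent intensities (signals) of 1 probe per gene, the one with the highest mean, and ratios are log2 ratios after each array was divided by its 75th percentile of signal. These percentiles were 2074 in WT untreated, 1819 in WT doxorubicin, 1881 in p53-/- untreated and 2421 in p53-/- doxorubicin. Probes that were printed 10 times on the array gave the only measure of error, an SD of 0.11 for a log2 ratio and 0.15 for a difference of log2 ratios, which covers the spot and not the cells.

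Trp53 itself, measured first as a check of the labels, had signals of 1228 in WT untreated, 3442 in WT doxorubicin, 442 in p53-/- untreated and 543 in p53-/- doxorubicin. Its log2 ratio of p53-/- over WT was -1.33 without and -3.08 with doxorubicin, lower in p53-/- as labelled, although the signal was well above background on all arrays. Whether this probe lies in the disrupted part of the gene is not known here. Of 12 fibroblast markers 12 were well above background on every array, with Col1a2, a chain of type I collagen, as the brightest (609265, 381815, 484340 and 357482 in the order WT untreated, WT doxorubicin, p53-/- untreated and p53-/- doxorubicin). Their summed signals were 1883074, 1298075, 1347660 and 1431816 in this order. The median log2 ratio of these 12 markers for doxorubicin over untreated was -0.82 in WT and -0.27 in p53-/- MEFs, with the lowest at -4.81 in WT, and for p53-/- over WT it was -0.31 without and -0.12 with doxorubicin. At least 2-fold lower were 5 of the markers in WT and 2 in p53-/- MEFs under doxorubicin, beside 10.4% and 6.89% of all genes. In p53-/- over WT 3 were as much lower without doxorubicin, beside 2.61%, and 2 as much higher with it, beside 11.9%. Among 14 leukocyte markers 11, 12, 11 and 10 were above background in the same order, with summed signals of 40030, 46819, 40003 and 42855, and Itgam was the brightest. Among 8 epithelial markers these numbers were 4, 6, 4 and 5 with summed signals of 12092, 19460, 10337 and 44174, led by Krt18, and among 6 endothelial markers they were 3, 3, 3 and 2 with sums of 7804, 7701, 5851 and 5785, led by Kdr. Of 4 erythroid markers 0, 3, 0 and 1 were above background, with sums of 88.6, 870.5, 132 and 423. Klf1 was the brightest of them on both untreated arrays, Hba-a1 in WT doxorubicin and Alas2 in p53-/- doxorubicin. The part of the fibroblast markers and of other cell types in the ratios of ribosomal protein genes was not tested, and in bulk RNA fewer cells of a type and less RNA per cell cannot be told apart.

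The start sites of the genes are shown first, because the TOP motif is the feature by which these mRNAs are usually grouped. RefSeq promoter sequences (GRCm38.p6, 250 bases before to 50 after the annotated start) were matched by symbol for 58 of the 79 members. The lines give 30 bases, 15 on either side of the annotated start, 5′ to 3′ on the strand of the gene, with a run of at least 7 C or T that opens with C in capitals. The run was not required to include the annotated start. It spans the start in Rplp2 and Rps27, ends before it in Rpl19 and Rpl10a and begins after it in Rps19. A marked run is therefore not shown to be a TOP motif. Rpl19 and Rps19 had opposite doxorubicin ratios in the genotypes, Rpl10a had 1 of the lowest ratios in both, Rplp2 belongs to the stalk and Rps27 had 1 of the highest ratios in p53-/- MEFs.
Rpl19 (chr11:98026909-98026938, + strand): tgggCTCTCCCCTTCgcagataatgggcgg
Rps19 (chr7:24884898-24884927, + strand): gagggagcggggtgtggagggCTCTCCCac
Rpl10a (chr17:28328456-28328485, + strand): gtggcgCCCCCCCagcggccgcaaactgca
Rplp2 (chr7:141447636-141447665, + strand): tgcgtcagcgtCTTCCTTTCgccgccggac
Rps27 (chr3:90213634-90213663, - strand): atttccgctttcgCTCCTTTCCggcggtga

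Such a run within these 30 bases was found in 30 of the 58 members (51.7%) and in 16.3% of 26967 other genes in the same table. Per promoter window it was found in 44.9% of 69 member promoters and 14.2% of all 32851 promoters. On the opposite strand it was found in 4 members (6.90%) and 18.1% of the other genes. The ETS factor core CCGGAAG, searched on both strands of the 300 bases, was in 24 of 58 members (41.4%) and 9.86% of other genes, and the letters AAGATGGC, the core of the YY1 motif, in 5 members (8.62%) and 3.18% of other genes. The letters CTCTTTC, which can lie inside a pyrimidine run, were in 16 members (27.6%) and 9.25% of other genes, and the TATA box letters TATAAA in 6 (10.3%) and 15.7%. A match is a description of the letters and not a binding site, and a run counted in this window need not be a TOP motif. Of the matched members measured on all arrays, 30 with the run had a median doxorubicin log2 ratio of -0.07 in WT and -0.27 in p53-/- MEFs, and 26 without it -0.04 and -0.23.

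Nearly all of these genes were bright. Of the 79 members, 77 were well above background on every array, with a median signal of 236775 in WT untreated, 209031 in WT doxorubicin, 192086 in p53-/- untreated and 220157 in p53-/- doxorubicin. Together the members held 6.99% of the summed signal of all genes in WT untreated, 6.73% in WT doxorubicin, 6.56% in p53-/- untreated and 5.92% in p53-/- doxorubicin, a share that does not change when an array is divided by a constant. The order of the arrays by this share was WT untreated, WT doxorubicin, p53-/- untreated and p53-/- doxorubicin. No spot of the arrays was marked as saturated. The dimmest measured member on all arrays was Rpl21, which encodes a large subunit protein, with signals of 608, 312, 504 and 586. Both probes of Rpl21 were dim, and the chosen probe starts at base 1514 of the listed transcript.

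The first question was how doxorubicin changed the ribosomal protein mRNAs of WT MEFs. The median log2 ratio of the 77 measured members was -0.06, beside 0.01 for all 17513 measured genes, with 29 members above and 48 below 0. The interquartile range was 0.21 for the members and 0.91 for all genes. None of the members reached a 2-fold difference in either direction, whereas 11.0% of all measured genes were at least 2-fold higher and 10.4% at least 2-fold lower. At 1.5-fold, 0 members were higher and 2 were lower (Rpl21 and Rpl3), beside 20.6% and 20.0% of all genes. Division by the array median instead moved the median of all genes to -0.27, that of the members to -0.34 and the split to 4 above and 73 below 0, so the sign of a small ratio depended on the scaling and the distance from the other members did not.

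The same comparison in p53-/- MEFs gave a lower distribution, which was also narrower under 75th percentile scaling. The median log2 ratio of the members was -0.27, beside 0.00 for all 16950 measured genes, and 75 of 77 members were below 0, beside 49.9% of all genes. Before scaling, the median signal of the members was higher with doxorubicin (220157) than without (192086). The 75th percentile rose further, from 1881 to 2421, so that the negative sign of the median came with the scaling. Here the interquartile range was 0.13 for the members and 0.81 for all genes, and with quantile normalization the members had 0.20 in each genotype. Again 0 members were 2-fold apart, with 9.24% of all genes at least 2-fold higher and 6.89% at least 2-fold lower, and 0 were 1.5-fold apart, with backgrounds of 19.4% and 15.9%. Array-median scaling gave a median of -0.57 against -0.30 for all genes. Quantile normalization, which adjusts bright and dim probes separately, gave -0.07, with 28 members above and 48 below 0, and cyclic loess gave -0.14, with 8 above and 69 below, so that the size of the lower level in p53-/- doxorubicin depended on the normalization.

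**Figure D1:**
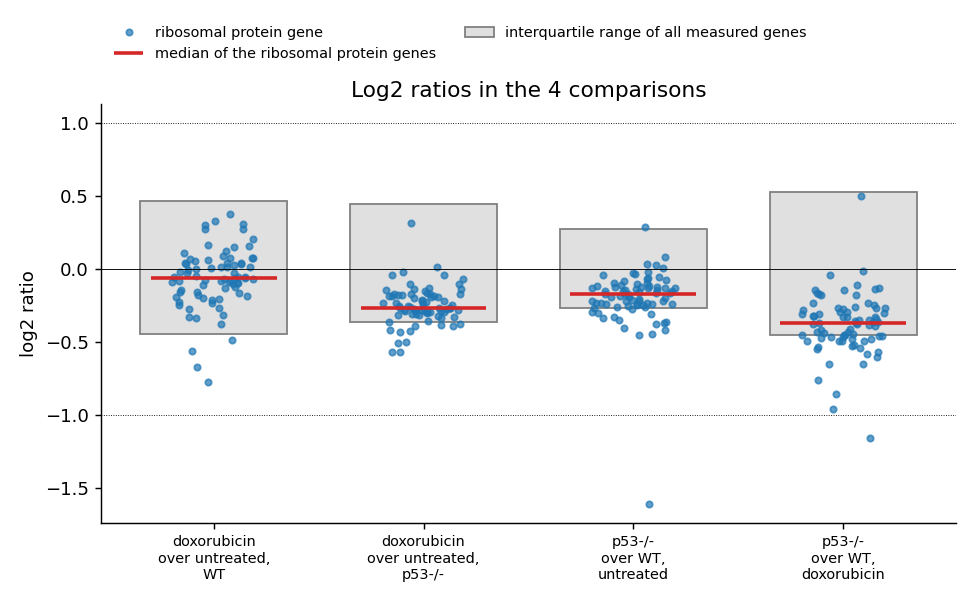
Log2 ratios (vertical axis, 75th percentile scaling) of 77 ribosomal protein genes in the 4 comparisons. Each point is 1 gene, red lines are their medians (-0.06, -0.27, -0.17 and -0.37 from left to right), grey boxes span the interquartile range of all measured genes and dotted lines mark 2-fold. The points are packed more tightly than the boxes, and the lowest point in both comparisons of genotypes is Rpl39l. With quantile normalization the second and the last median lie closer to 0 (-0.07 and -0.11).

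The genotypes were also compared with each other, on arrays that the doxorubicin ratios share. Without doxorubicin the median log2 ratio of p53-/- over WT was -0.17 for the members and 0.00 for all 17286 genes, with 72 of 77 members below 0 beside 50.3% of all genes. Under doxorubicin it was -0.37, with 76 of 77 below 0 beside 49.97% of 17888 genes. Exactly 1 member, Rpl39l, was at least 2-fold lower in each of these comparisons, beside 2.61% of all genes without and 10.3% with doxorubicin, and 0 members were at least 2-fold higher, beside 2.15% and 11.9%. At 1.5-fold, 0 members were higher without or with doxorubicin, beside 8.74% and 22.8% of all genes. At this threshold 1 member was lower without and 7 with doxorubicin, beside 8.68% and 19.7%. Quantile normalization reduced the medians to -0.10 and -0.11 and cyclic loess to -0.07 and -0.17.

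By array, 74 of the 77 members had their lowest scaled level in p53-/- doxorubicin, 2 in p53-/- untreated, 1 in WT doxorubicin and 0 in WT untreated. The highest level was in WT untreated for 47 members, in WT doxorubicin for 29 and in p53-/- untreated for 1, whereas array-median scaling gave 72, 3 and 2, quantile normalization 35, 26 and 9 (and 7 in p53-/- doxorubicin) and cyclic loess 30, 31 and 16 in the same order. With quantile normalization the lowest level lay in p53-/- doxorubicin for 35 members, in p53-/- untreated for 19, in WT doxorubicin for 17 and in WT untreated for 6, and with cyclic loess for 57, 7, 9 and 4.

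**Figure D2:**
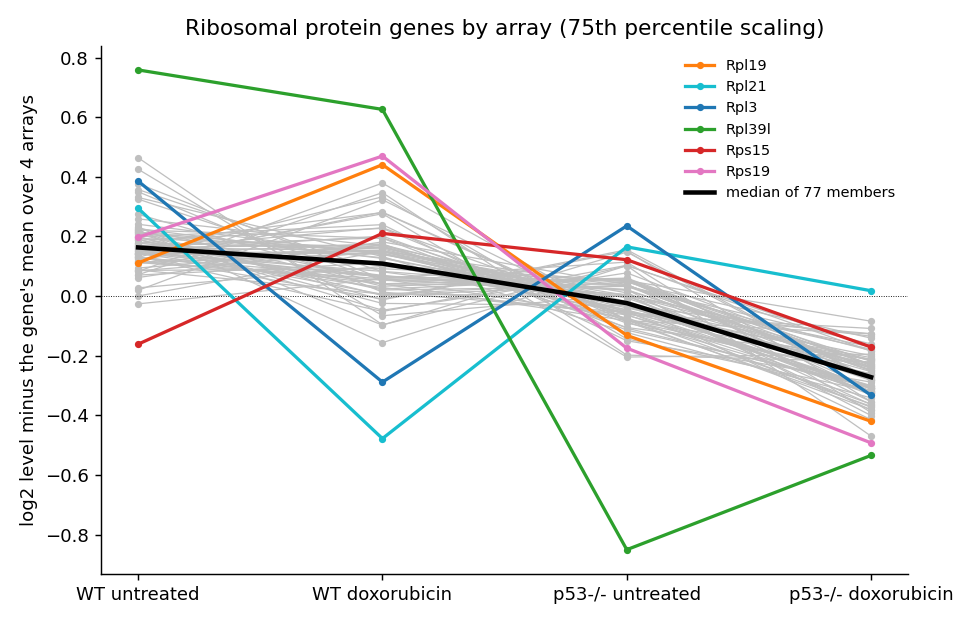
Level of each of 77 ribosomal protein genes on each array (horizontal axis), as log2 of the scaled signal minus the mean of that gene over the 4 arrays (vertical axis). Grey lines are single genes, the black line is their median and 6 genes are colored. The median is lowest in p53-/- doxorubicin, where 74 genes have their lowest level (35 with quantile normalization). Rps15, Rpl19 and Rps19 are higher in WT doxorubicin than in WT untreated (with array-median scaling Rps19 is just below 0), and Rpl21 and Rpl3 are lower there.

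The subunits were also taken separately. For the 30 small subunit genes the median doxorubicin log2 ratio was -0.04 in WT and -0.26 in p53-/- MEFs, and for the 47 measured large subunit genes it was -0.08 and -0.27. In p53-/- over WT the medians were -0.22 and -0.16 without and -0.40 and -0.37 with doxorubicin for the small and the large subunit.

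Rps15, Rps28 and Rps19 were among the small subunit genes with the highest doxorubicin ratio in WT MEFs. Rps15, a protein of the head of the 40S subunit, had signals of 131561 in WT untreated, 149274 in WT doxorubicin, 145227 in p53-/- untreated and 152579 in p53-/- doxorubicin. Relative to the 75th percentile its log2 ratio was 0.37 in WT and -0.29 in p53-/- MEFs, and it was the member furthest above the WT median of the group (by 0.43). Its log2 ratio of p53-/- over WT was 0.28 without doxorubicin, the highest of the members, and -0.38 with it. A second Rps15 probe was included in the mean of probes, which gave 0.34 and -0.31.

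Rps19, a 40S protein whose human counterpart is the gene most often mutated in Diamond-Blackfan anemia, had signals of 119807, 126903, 83960 and 86709 in the order WT untreated, WT doxorubicin, p53-/- untreated and p53-/- doxorubicin. Its log2 ratios were 0.27 in WT and -0.32 in p53-/- MEFs, with the WT ratio just below 0 under array-median scaling. Under doxorubicin its log2 ratio of p53-/- over WT was -0.96, the lowest of the small subunit genes. Both WT signals of Rps19 were above both p53-/- signals. Rps28, a small 40S protein, had signals of 304986, 330154, 257883 and 293214 and log2 ratios of 0.30 and -0.18, the second above 0 with quantile normalization. In Rps15, Rps19 and Rps28 the raw signal was higher on the doxorubicin array than on the untreated array of both genotypes, and the ratio took its sign in p53-/- MEFs from the higher 75th percentile of the p53-/- doxorubicin array. In p53-/- MEFs this was not particular to these genes, since the median raw signal of the members was also higher with doxorubicin (220157) than without (192086).

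Rps27, a zinc finger protein of the 40S subunit, had signals of 241778, 235789, 174747 and 226478 and log2 ratios of 0.15 for WT and 0.01 for p53-/- MEFs, the only small subunit gene above 0 in both, and both were below 0 with array-median scaling. At the other end, Rps15a had log2 ratios of -0.34 and -0.25, Rps4x, an X-linked 40S protein, -0.32 and -0.29, and Rps18 -0.27 and -0.42. Rps4x and Rpl36a were the pair of genes after Rpl39l with the lowest log2 ratio of p53-/- over WT without doxorubicin, -0.45 for each. Rps2 was at 0.08 there, 1 of 5 members above 0, and at -0.14 under doxorubicin.

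Among the large subunit genes, Rpl19 stood at the upper end in WT MEFs. It had signals of 197890, 218116, 151665 and 159860 and log2 ratios of 0.33 for WT and -0.29 for p53-/- MEFs. Both WT signals were above both p53-/- signals. Array-median scaling left the WT ratio at 0.05. The log2 ratio of p53-/- over WT under doxorubicin was -0.86, with Rps19 the lowest after Rpl39l.

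Rpl41, the shortest ribosomal protein, was the brightest probe of the group in WT untreated, with signals of 440639, 428792, 408648 and 453024. Its log2 ratios were 0.15 in WT and -0.22 in p53-/- MEFs, with the first below 0 under array-median scaling and the second above 0 with quantile normalization.

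The lower end in WT MEFs was formed by Rpl21, Rpl3, Rpl10a and Rpl5, all of the large subunit. Rpl3, measured by 1 probe like Rpl19 and Rps19, lies near the peptidyl transferase center. It had signals of 175192, 96249, 143152 and 124238, and its log2 ratio was -0.67 in WT and -0.57 in p53-/- MEFs. Rpl10a had signals of 396228, 235563, 279526 and 242045 and log2 ratios of -0.56 and -0.57. In both genes WT untreated was the highest of the 4 signals. They were the lowest of the group in p53-/- MEFs as well, followed by Rpl10 (-0.51) and Rpl13 (-0.50), whose WT ratios were -0.23 and -0.16. Rpl21 was the lowest in WT MEFs, with a log2 ratio of -0.77 in WT and -0.15 in p53-/- MEFs, and its difference of -0.63 (WT minus p53-/-) was the lowest of the group. It was also the dimmest member, and its log2 ratio of p53-/- over WT under doxorubicin, 0.50, was the only one above 0.

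The stalk genes, whose products recruit elongation factors to the large subunit, and Rpsa, the 40S protein also known as laminin receptor, were followed by name. Rplp0 had signals of 382917, 349192, 317207 and 344189 and log2 ratios of 0.06 for WT and -0.25 for p53-/- MEFs. For Rplp1 these ratios were -0.13 and -0.04, for Rplp2 -0.06 and -0.27 and for Rpsa -0.25 and -0.31. In p53-/- MEFs Rplp1 lay 0.22 above the median of the members, at rank 4 of 77 from the highest. With quantile normalization the p53-/- ratios of Rplp0, Rplp1 and Rplp2 were above 0.

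Of the ribosomal proteins reported to bind Mdm2, 8 were followed as a list that is not complete, namely Rpl5, Rpl11, Rpl23, Rpl26, Rps3, Rps7, Rps14 and Rps27a. Rpl5, which forms the 5S particle with Rpl11, had signals of 85484 in WT untreated, 53313 in WT doxorubicin, 57870 in p53-/- untreated and 57739 in p53-/- doxorubicin, with log2 ratios of -0.49 and -0.37. Rpl11 had signals of 337841, 264253, 280092 and 286546 and log2 ratios of -0.16 and -0.33. For both genes WT untreated was the highest of the 4 signals. Rpl26, which also binds the Trp53 mRNA, had signals of 167352, 159440, 149308 and 153839 and log2 ratios of 0.12 for WT and -0.32 for p53-/- MEFs, the first below 0 with array-median scaling. The WT and p53-/- ratios were -0.03 and -0.31 for Rpl23, 0.20 and -0.18 for Rps3, -0.10 and -0.30 for Rps7, 0.10 and -0.28 for Rps14 and -0.33 and -0.43 for Rps27a, which is made as a fusion with ubiquitin. Under 75th percentile scaling none of the 8 genes was 1.5-fold apart in either doxorubicin comparison, which held for all members but 2 in WT and for all in p53-/- MEFs, beside 20.6% higher and 20.0% lower of all genes in WT and 19.4% and 15.9% in p53-/- MEFs. In p53-/- over WT under doxorubicin Rps3 and Rps14 (-0.65 each) were at least 1.5-fold lower, 2 of the 7 members that were, beside 19.7% of all genes.

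Among the paralogs Rpl39l, Rpl3l and Rpl10l, the first was well above background on every array. Rpl39l, a paralog of Rpl39 known for its expression in testis, had signals of 2824 in WT untreated, 2259 in WT doxorubicin, 839 in p53-/- untreated and 1345 in p53-/- doxorubicin. Both p53-/- signals were below both WT signals, and the log2 ratio of p53-/- over WT was -1.61 without and -1.16 with doxorubicin under 75th percentile scaling and between -1.66 and -1.56 and between -1.23 and -1.11 under the other 3 scalings and normexp background correction. Its doxorubicin log2 ratios were -0.13 in WT and 0.32 in p53-/- MEFs, the highest of the group in the latter. Rpl3l, the muscle paralog of Rpl3, was well above background in p53-/- doxorubicin alone, at a signal of 113 that lay below the brightest negative control spot of that array (120). No fold is given for it. Rpl10l, a testis paralog of Rpl10, was not well above background on any array.

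Rps27l, which the rule leaves out and which is a known p53 target, is given for comparison. It had signals of 102870 in WT untreated, 180237 in WT doxorubicin, 50306 in p53-/- untreated and 86592 in p53-/- doxorubicin. Its log2 doxorubicin ratios were 0.999, just under 2-fold, in WT (1.03 with quantile normalization, 1.04 with cyclic loess and 0.72 with array-median scaling) and 0.42 in p53-/- MEFs, where its paralog Rps27 had 0.15 and 0.01, and its log2 ratio of p53-/- over WT was -0.89 without and -1.47 with doxorubicin. Rpl22l1, the paralog of Rpl22, had signals of 89554, 20484, 37763 and 22404 and log2 doxorubicin ratios of -1.94 and -1.12, where Rpl22 had -0.38 and -0.27. Rpl7l1 had ratios of 0.24 and -0.04 and Rpl36al of 0.20 and -0.06, with both WT ratios below 0 under array-median scaling. In WT MEFs Rps27l and Rpl22l1 thus lay outside the range of the 77 members, which ran from -0.77 to 0.37.

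The doxorubicin ratios of the genotypes, which share no array, were then set against each other. Over the 77 members 47 were below 0 in both genotypes, 28 were above 0 in WT and below 0 in p53-/- MEFs, 1 was above 0 in both (Rps27) and 1 below 0 in WT and above 0 in p53-/- MEFs (Rpl39l). Pearson's r between the ratios was 0.36 and Spearman's rho 0.39 across the 77 genes, a description of these arrays, since genes measured on one array share its RNA and its scaling. The median difference (WT minus p53-/-) was 0.19, with 10 members below 0 beside 49.1% of all 16513 genes. It was 0.22 with array-median scaling, 0.10 with cyclic loess and -0.01 with quantile normalization. A difference of at least 1 in either direction was found in 0 members and 18.2% of all genes.

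**Figure D3:**
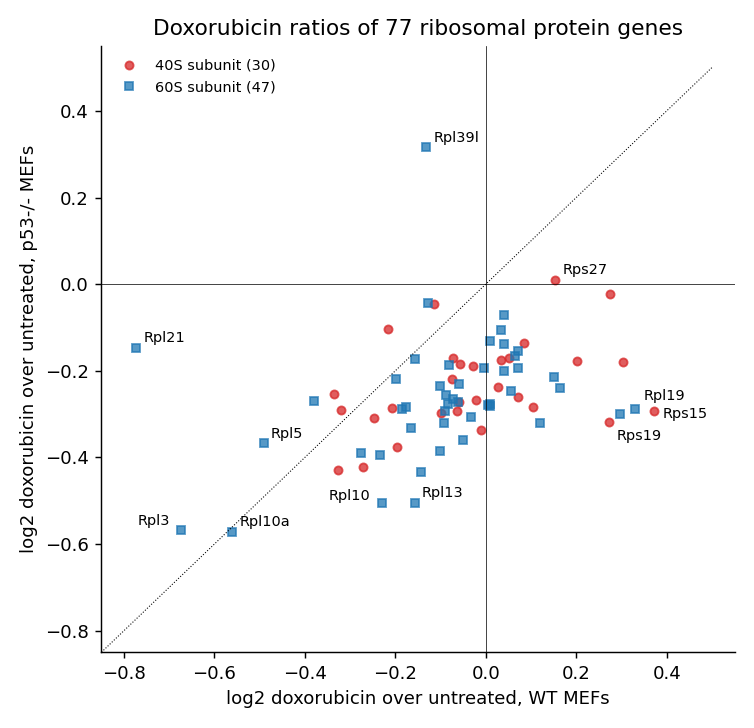
Doxorubicin log2 ratio in WT MEFs (horizontal axis) against that in p53-/- MEFs (vertical axis) for 77 ribosomal protein genes, with the small subunit as red circles (30) and the large subunit as blue squares (47). The dotted line marks equal ratios. Most points lie below it and 28 lie right of 0 and below 0, a split that becomes smaller with array-median scaling, which leaves 4 genes above 0 in WT MEFs.

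Many genes had several probes, which gives a check within an array. Of 53 members with at least 2 probes measured on all arrays, 33 had probe ratios within 0.20 of each other in both genotypes and 1, Rps27a, had a range over 1. Ribosomal protein genes have many processed pseudogenes in the mouse genome, and 69.0% of the member probes listed a predicted or noncoding RefSeq transcript as a further target, beside 22.2% of the other probes. Among the chosen probes 56 of 79 did, and 3 chosen probes (of Rpl12, Rpl31 and Rps29) were placed on another chromosome than the gene. Signal from such copies cannot be separated from that of the gene with these probes, and the part of pseudogenes was not tested. When only probes without such a listing were used, 38 members were measured, with medians of -0.12 in WT and -0.21 in p53-/- MEFs.

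A group of 16 genes had a second probe with a signal under 10% of that of the chosen probe, and 13 of these dim probes lay downstream of the chosen one in the listed transcript. The letters AATAAA, the usual polyadenylation signal, were in 22 of the 79 chosen probes (27.8%), in 4 of the 16 dim probes (25%) and in 12.5% of the 39258 probes of other genes, so that they did not set the chosen probes apart from the dim ones. They are shown because they are the letters at which the 3′ end of an mRNA is usually formed, and the dim probes of Rpl14 and Rps3 held them too. The lines give 30 bases of chosen probes with these letters in capitals, on the strand of the transcript, with the mm9 coordinates of the whole 60-base probe as the files give them (the Rps3 probe spans an intron).
Rpsa (chr9:120040617-120040676, + strand): agatggaaggaaAATAAAgttgctaaaagc
Rpl14 (chr9:120483487-120483546, + strand): gctacacagaatAATAAAggttctttttga
Rps3 (chr7:106627408-106627786, - strand): gatgctaccttgtaaagacatttAATAAAa

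The dim Rpsa probe started at base 1340 of the listed transcript and the chosen one at base 990. The dim probe had signals of 704 in WT untreated, 293 in WT doxorubicin, 662 in p53-/- untreated and 647 in p53-/- doxorubicin. Its log2 doxorubicin ratio was -1.08 in WT and -0.40 in p53-/- MEFs, beside -0.25 and -0.31 for the chosen probe. The dim Rpl14 probe had ratios of -0.56 and -0.40, beside -0.23 and -0.39, and that of Rps3 0.44 and 0.62, beside 0.20 and -0.18. Over the 16 dim probes the median ratio was -0.33 in WT and -0.12 in p53-/- MEFs, beside -0.18 and -0.30 for the chosen probes of the same genes. The dim probe was below the chosen one in 11 of 16 genes in WT MEFs and above it in 10 of 16 in p53-/- MEFs. At 1.5-fold, 5 dim probes were lower in WT MEFs (Rpsa, Rpl22, Rpl27a, Rpl31 and Rpl39) and 0 in p53-/- MEFs, beside 20.0% and 15.9% of all genes. At the same threshold 1 was higher in WT (Rps27a) and 3 in p53-/- MEFs (Rps27a, Rpl15 and Rps3), beside 20.6% and 19.4%. None of the 16 dim probes listed a predicted or noncoding transcript.

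Of the 3 dim probes that lay upstream, that of Rps27a differed most from its chosen probe. It starts at base 42 of the transcript, and had signals of 80.7 in WT untreated, 146 in WT doxorubicin, 69.6 in p53-/- untreated and 373 in p53-/- doxorubicin, and log2 ratios of 1.04 and 2.06. On 2 of these arrays, WT untreated and p53-/- untreated, it was dimmer than the brightest negative control (108 and 250.1).

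**Figure D4:**
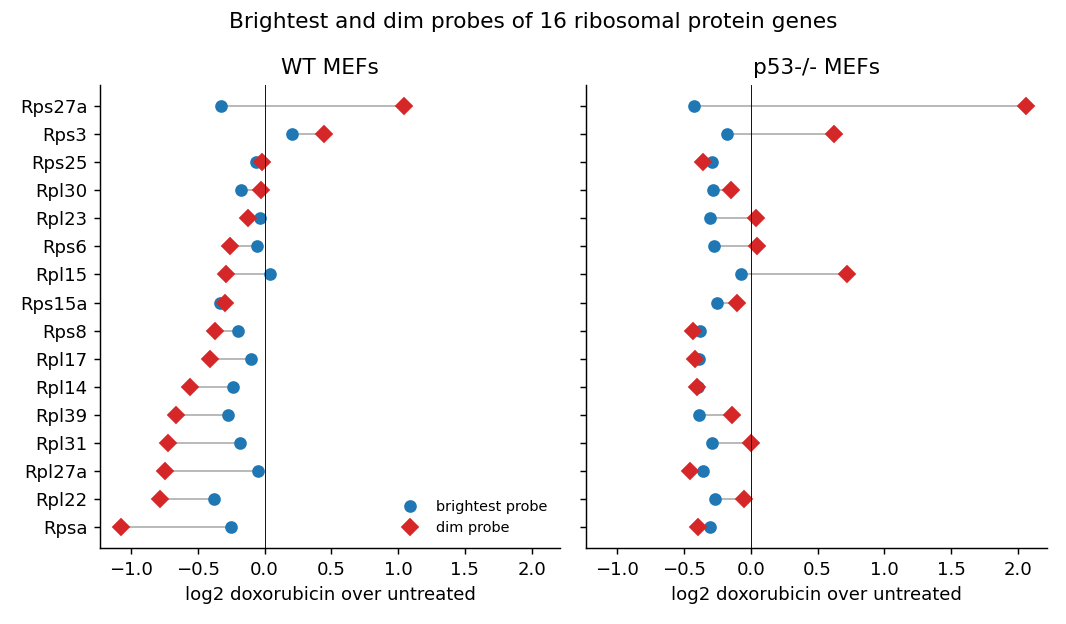
Log2 doxorubicin ratio (horizontal axis, 75th percentile scaling) of the brightest probe (blue circles) and the dim probe (red diamonds) of 16 ribosomal protein genes in WT (left) and p53-/- MEFs (right). The dim probe lies to the left of the brightest one in 11 genes in WT and to the right of it in 10 genes in p53-/- MEFs, an order within an array that no constant scaling changes.

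The genes around the ribosome were followed in lists. Of 24 translation factors and other mRNAs with a TOP motif, 0 were 2-fold apart in either doxorubicin comparison, beside 11.0% higher and 10.4% lower of all genes in WT and 9.24% and 6.89% in p53-/- MEFs. With array-median scaling 2 were 2-fold lower in WT MEFs (Nap1l1 and Hnrnpa1). The list had median log2 ratios of -0.03 for WT and -0.10 for p53-/- MEFs and of -0.19 and -0.27 for p53-/- over WT without and with doxorubicin, of the same sign as the ribosomal proteins under 75th percentile scaling. The lowest in WT MEFs were Nap1l1, a histone chaperone (-0.81), Hnrnpa1 (-0.74), the noncoding host gene Gas5 (-0.68) and Eif4b (-0.63), and in p53-/- MEFs Eef2 (-0.42), Eef1g (-0.41), Naca (-0.40) and Rack1 (-0.39), the last a protein of the 40S subunit. Eif3k (0.46 and 0.29) was the highest in both.

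The proteins of the mitochondrial ribosome, which translates the few mRNAs of the mitochondrial genome, had higher ratios than the cytosolic ones. The median of 77 measured genes was 0.20 in WT and 0.23 in p53-/- MEFs, and -0.07 in both with array-median scaling, beside cytosolic medians of -0.34 and -0.57 under that scaling, which shifts both lists alike. With quantile normalization it was 0.18 and 0.20, beside -0.05 and -0.07 for the cytosolic genes, and with cyclic loess 0.25 and 0.28, beside -0.03 and -0.14. In WT MEFs 3 were at least 2-fold higher (Mrpl39, Mrps31 and Mrpl28) and 1 at least 2-fold lower (Mrps16). In p53-/- MEFs 1 was higher (Mrpl49) and 2 were lower (Mrps16 and Mrps28). Of all genes, 11.0% were as much higher and 10.4% as much lower in WT MEFs, and in the p53-/- cells these shares were 9.24% and 6.89%. With array-median scaling 0 were higher and 3 lower in each genotype. Their medians of p53-/- over WT were -0.03 and -0.02.

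The 65 measured ribosome biogenesis factors, which transcribe and process ribosomal RNA, had medians of 0.01 in WT and 0.08 in p53-/- MEFs with 75th percentile scaling. In p53-/- over WT their medians were 0.31 without and 0.35 with doxorubicin (0.26 and 0.27 with array-median scaling and higher with quantile normalization and cyclic loess), on the other side of 0 from the ribosomal proteins. In WT MEFs Polr1e (1.74), a subunit of RNA polymerase I, Rrp9 (1.34) and Brix1 (1.11) were at least 2-fold higher and Tcof1 (-1.17), which activates transcription of ribosomal RNA genes, was at least 2-fold lower, of which Brix1 lost the 2-fold difference with array-median scaling and both Brix1 and Tcof1 lost it as means of probes. These 3 higher genes and 1 lower gene of 65 stand beside 11.0% and 10.4% of all genes. In p53-/- MEFs 0 were 2-fold apart, beside 9.24% higher and 6.89% lower of all genes.

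Of 22 regulators of ribosomal protein synthesis the median was -0.04 in WT and -0.29 in p53-/- MEFs, with 0 genes 2-fold apart in WT, beside 11.0% higher and 10.4% lower of all genes (Rps6kb1 was 2-fold lower there with array-median scaling). In p53-/- MEFs Mycn (1.75) was at least 2-fold higher, and Sesn2 (-1.34), Ddit4 (-1.31) and Rptor (-1.05), all of the mTOR pathway, were at least 2-fold lower, beside 9.24% and 6.89% of all genes. Larp1, which binds TOP mRNAs, had ratios of -0.71 and -0.82. Array-median scaling, under which the median of all genes was -0.30 in p53-/- MEFs, took Larp1 past 2-fold lower in these cells as well. Myc, which activates ribosomal protein genes, had -0.45 in WT MEFs, and the S6 kinase gene Rps6kb1 had -0.76 there.

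The last list held 13 genes that assemble the 5S particle or regulate Mdm2, and its medians were 0.02 in WT and 0.01 in p53-/- MEFs. Mdm2, a direct p53 target, had signals of 52283 in WT untreated, 183079 in WT doxorubicin, 13656 in p53-/- untreated and 24286 in p53-/- doxorubicin, with log2 ratios of 1.998 and 0.47. Pml (1.59 and 0.92) and Brix1 (1.11 and 0.18) were the others at least 2-fold higher in WT MEFs, with Brix1 at 0.83 under array-median scaling and 0.92 as the mean of its probes. Mdm4 (0.01 and -1.01) was at least 2-fold lower in p53-/- MEFs, but not with normexp background correction (-0.88) or as the mean of its probes (-0.90). Thus 3 of 13 were 2-fold higher in WT MEFs, beside 11.0% of all genes, and 1 was 2-fold lower in p53-/- MEFs, beside 6.89%. The nucleolar proteins Npm1 (-0.33 and -0.45) and Ncl (-0.06 and -0.22), the assembly factors Rrs1 (0.12 and 0.39), Rpf2 (0.12 and -0.02) and Nop53 (0.30 and 0.36), and Gnl3 (-0.17 and 0.01), Cdkn2a (0.02 and 0.01) and Usp7 (-0.13 and -0.11) were within 1.5-fold in both genotypes under 75th percentile scaling. Array-median scaling took Npm1 past 1.5-fold in both (-0.61 and -0.74) and turned the signs of Rrs1, Rpf2 and Cdkn2a in WT and of Gnl3 and Cdkn2a in p53-/- MEFs. Other alternatives turned Cdkn2a (quantile normalization) and Ncl (mean of probes) in WT and Rpf2 (cyclic loess) and Gnl3 (normexp background correction) in p53-/- MEFs.

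**Figure D5:**
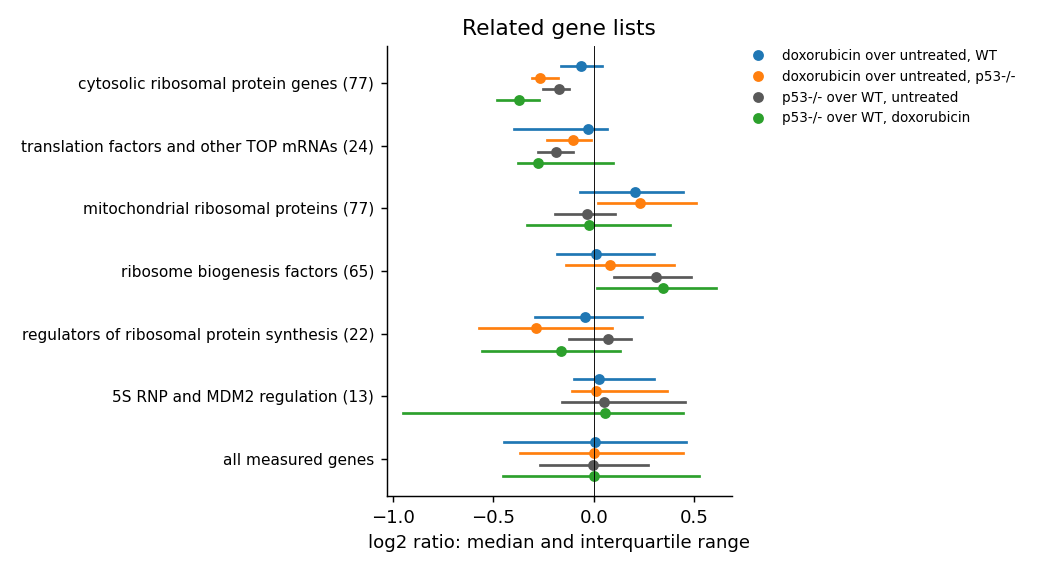
Median log2 ratio (points) and interquartile range (lines) of the ribosomal protein genes, 5 related lists and all measured genes in the 4 comparisons (colors), with the number of genes measured in WT MEFs in brackets. The cytosolic ribosomal protein genes have the lowest median in both comparisons of genotypes (-0.17 and -0.37), apart from translation factors without doxorubicin (-0.19), and ribosome biogenesis factors the highest (0.31 and 0.35). With array-median scaling the doxorubicin medians of the mitochondrial ribosomal proteins turn from above to below 0.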

How the data were processed

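Total RNA (200 ng per sample) of 4 MEF samples was labeled with Cy3 and hybridized to 1-color Agilent mouse arrays. The deposited intensities were made by the authors with Feature Extraction (10.7.3.1), which subtracted the background and corrected trends within an array. They were not normalized between arrays, and the deposited series table of intensities was equal to them at 44397 of 44397 spots on each array. The fold changes that the methods made with other software were not used.

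Here, control and outlier spots were left out, the log2 intensities of the spots of a probe were averaged and the 75th percentile of the array was subtracted. Each gene was read from 1 probe, that of highest mean, and its ratio counted as measured if Feature Extraction marked this probe well above background on both arrays compared. Where only 1 was marked, no fold was given. Summed shares used 1 probe per gene. With 1 array per condition no test was made, and the number of arrays limits the precision. The SD of repeat spots came from 245 of 399 probes printed 10 times. Gene names came from a RefSeq table (GRCm38.p6), and the positions of probes were taken from the files (mm9).

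Members, lists and rules were chosen with earlier results of these data known. Named were the stalk genes and Rpsa, 8 Mdm2 binders, paralogs (no probe of Rps4l was analysed here), the 4 highest and 4 lowest members of each comparison, members whose probes disagreed by over 1, members 2-fold apart, all genes of the 5S particle list and of the paralogs outside the rule (Rps4y2 was not analysed here), and up to 4 genes at either end of the other lists, apart from a few genes whose results are not reported here. Other genes named with their probes (Rps15a, Rps18, Rpl14, Rpl27a, Rpl31, Rpl39, Rpl12, Rps29) were chosen after their values were seen.

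Alternatives were array-median scaling, quantile normalization, cyclic loess (limma 3.58.1), normexp background correction (offset 50), no filter on dim probes, a filter on all 4 arrays, the deposited table, averaging all probes of a gene, a threshold of 1.5-fold and, added after seeing the data, probes that list no predicted or noncoding transcript. As a check of the code, on simulated arrays with the error of repeat spots alone in which 200 genes were changed 3-fold, 100% of them were recovered among 17514 genes for WT doxorubicin over untreated, with 0 others called. The software was R 4.3.3 and Python 3.11.15, with the packages pandas 2.3.3, numpy 2.4.6, matplotlib 3.10.9 and scipy 1.17.1.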

Additional observations from a re-analysis of the deposited data

Results flagged for a closer look

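In Rps15, Rpl19 and Rps19 the doxorubicin ratio lay above 0 in WT MEFs and below 0 in the p53-/- cells, by more than 0.22 on each side, which is 2 times the SD of a spot ratio. The difference of log2 ratios (WT minus p53-/-) was 0.66 for Rps15, 0.62 for Rpl19 and 0.59 for Rps19, and it was not tested, since each condition had 1 array. With array-median scaling the differences were 0.69, 0.64 and 0.61, with quantile normalization 0.53, 0.45 and 0.52 and with cyclic loess 0.59, 0.53 and 0.53 in the same order. The opposite direction itself depended on the scaling, since with array-median scaling the WT ratios were 0.10 for Rps15, 0.05 for Rpl19 and just below 0 for Rps19. All probes of these 3 genes list a predicted or noncoding transcript as a further target, so that none of them has a value from probes without such a listing, under which 1 of the 6 members highest in WT MEFs was still among the 6 highest.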

How the results depend on the processing

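With 1 array per condition no replicate could be left out. No paired analysis was possible because the groups share fewer than 2 replicate numbers. A block for the slide could not be fitted, as all arrays were on 1 slide. Array-median scaling moved the median of the members to -0.34 in WT and -0.57 in p53-/- MEFs. Quantile normalization gave -0.066 for p53-/- MEFs, -0.11 for p53-/- over WT under doxorubicin and -0.0095 for the difference of the doxorubicin ratios, whose direction turned. Cyclic loess gave -0.14 for p53-/- MEFs and -0.17 for p53-/- over WT under doxorubicin. The causes were not tested. The other medians under all alternatives stayed within the SD of a spot ratio.

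For counts of members 2-fold apart, array-median scaling gave 1 lower in WT (Rpl21) and 2 lower in p53-/- over WT under doxorubicin (Rpl39l and Rps19). Without the filter on dim probes 1 member, Rpl3l, which was not well above background on 3 arrays, was higher in each doxorubicin comparison. The mean of probes gave 1 higher in p53-/- MEFs and in p53-/- over WT under doxorubicin. Probes without predicted or noncoding transcripts gave 1 lower in WT MEFs (Rpsa) and 1 higher in p53-/- over WT without and with doxorubicin (Rps15a, from a probe whose p53-/- untreated signal of 210 was below the brightest negative control of that array, 250.1). At 1.5-fold, 2 were lower in WT MEFs and 7 in p53-/- over WT under doxorubicin. Of 1510 values of single genes under the alternatives, 279 moved by more than the SD of a spot ratio or difference and 0 that were 2-fold apart changed sign.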
